A study of Homo sapiens with 8 samples.

Results

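The transcript levels of HCT116 cells given FK228 were compared directly with those of HCT116 cells given SAHA. The groups were chosen by the treatment in the sample labels, which gave 2 FK228 arrays and 2 SAHA arrays, 4 of the 8 arrays of the series. HCT116 is an established human colorectal carcinoma line. FK228 (romidepsin) was given at 20 nM and SAHA (vorinostat) at 2 µM, each for 10 h, and the other arrays came from cells given largazole at 20 nM (2 arrays) or vehicle (2 arrays). The doses of FK228 and SAHA differ, so compound, dose and chemical class cannot be told apart in this comparison. RNA was measured on an Affymetrix Human Genome U133 2.0 array. A level below is the deposited log2 value of a probe set, and a difference is FK228 minus SAHA on that log2 scale, with its standard error and 2 arrays in each group.

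Histone deacetylases (HDACs) remove acetyl groups from lysines of histones and other proteins, and most of them need a zinc ion in the catalytic pocket. SAHA is a linear hydroxamic acid that binds this zinc. FK228 is a bicyclic depsipeptide whose disulfide is reduced inside the cell, and the freed thiol binds the zinc. Largazole, the other depsipeptide here, carries a thioester that is cleaved to a thiol. Inhibition of these enzymes in carcinoma cells is known to raise many silent transcripts, to lower many active ones and to induce the CDK inhibitor CDKN1A.

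The arrays had nearly equal medians (4.47 to 4.51). Of 15 colorectal epithelial markers, 11 stood at or above the filter on low levels (4.49, the median of all deposited values) on all 8 arrays and GPX2, LGR5, ASCL2 and CEACAM6 stood under it on all of them. Their summed level was 116.35 and 116.65 with FK228 and 118.07 and 118.01 with SAHA. Of 13 measured leukocyte markers, 9 were under the filter on all arrays, PTPRC, CD3E and MS4A1 among them, and none passed 5.64. The other 4, ITGAM, ITGAL, CSF1R and CD79A, stood at or above the filter on all 8 arrays. The leukocyte sum was 51.1 to 52.2 with FK228 and 51.3 to 51.8 with SAHA. Of 15 fibroblast and endothelial markers, 8 were under the filter on all arrays and the highest was COL1A1 at up to 8.56. COL1A1, PDGFRB, PECAM1, CLDN5 and ESAM stood at or above it on all arrays. The sum of the 15 was 63.8 to 65.3 with FK228 and 63.1 to 63.9 with SAHA.

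A gene was called when limma's moderated test, adjusted by Benjamini-Hochberg over the 28985 tested probe sets, gave an adjusted p under 0.05. Of 13381 tested genes, 823 (6.15%) were called between FK228 and SAHA. The calls were nearly even, with 415 genes (3.1%) higher with FK228 and 408 (3.05%) higher with SAHA. Most differences were small: the median absolute difference of the called genes was 0.55, and only 25 genes were at least 2-fold higher with FK228 and 30 at least 2-fold higher with SAHA. In all 823 genes the FK228 arrays did not overlap the SAHA arrays, which adds no support to the calls. Genes that were not called, such as MET and TYMS, were also without overlap. At an unadjusted p under 0.05 there were 3313 genes, 1775 of them higher with FK228. Leaving out an array leaves 1 array in its group and fewer residual degrees of freedom. A lower count there does not show reliance on a particular array. For largazole and for vehicle, either array left out gives the same fit of this difference. The number of called genes fell with any 1 array left out. It was 169 without FK228 replicate 1, 143 without FK228 replicate 2, 94 without SAHA replicate 1, 147 without SAHA replicate 2, 401 without largazole replicate 1 or replicate 2 and 540 without vehicle replicate 1 or replicate 2. With only the 4 compared arrays in the fit, 65 genes were called, and without the filter on low levels 319. Other settings raised the count, to 1174 when all probe sets of a gene were averaged, 1424 with the replicate number as a block, 1479 with a stricter filter and 1594 with an intensity trend and robust prior. Leaving out each array in turn, 64 genes stayed called throughout, and 34 of the 55 genes at least 2-fold apart were among them.

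**Figure D1:**
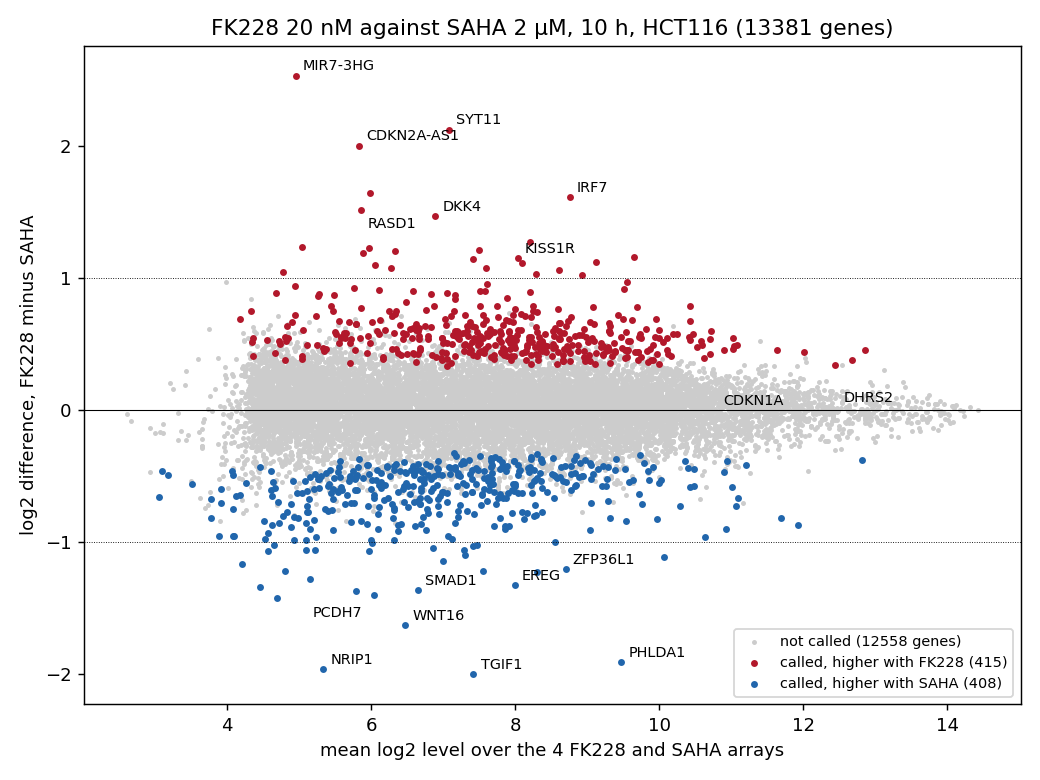
Log2 difference (FK228 minus SAHA, vertical axis) against the mean log2 level over the 4 FK228 and SAHA arrays (horizontal axis) for 13381 genes. Red points are the 415 genes called higher with FK228, blue points the 408 called higher with SAHA, grey points are not called, and dotted lines mark 2-fold. MIR7-3HG and SYT11 lie highest, TGIF1 and NRIP1 lowest, and CDKN1A and DHRS2 lie on the zero line at high levels.

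Most genes could be bounded. The 95% interval of the difference lay within 1.5-fold either way for 10626 genes (79.4%). A further 1988 genes were neither called nor bounded in this way, so a difference of that size was neither shown nor bounded for them. Against vehicle, 7060 genes (52.8%) were called with FK228 and 6339 (47.4%) with SAHA. These comparisons share arrays with the direct one and are given side by side only. For the genes called higher with FK228, the median change against vehicle was 0.95 with FK228 and 0.42 with SAHA. For the genes called higher with SAHA it was -1.29 with FK228 and -0.69 with SAHA. The called sets also differed in gene span and in vehicle level, given here as description. The median span of the gene on the genome was 20.2 kb for genes higher with FK228, 50.3 kb for genes higher with SAHA and 27.7 kb for all tested genes. The vehicle level was under the filter on low levels for 7.71% of the genes higher with FK228, 1.23% of those higher with SAHA and 4.42% of all tested genes. A gene low in vehicle was tested only where other arrays reached the filter. These shares are therefore partly set by the filter and are not independent of the calls.

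The promoters of the leading pair of genes on either side are shown because these genes differed most. Each runs 250 bases before to 50 bases after the RefSeq start on GRCh38.p14, in the direction of transcription, with capitals marking matches to a motif on either strand. The motif for a GC box was GGGCGG. That for a cyclic AMP response element was TGACGTCA. That for an AP-1 site was TGANTCA, and that for a TATA box was TATAAA. Matches to different motifs did not overlap in these windows. MIR7-3HG lies at chr19:4768855-4769154 on the plus strand, SYT11 at chr1:155859317-155859616 on the plus strand, TGIF1 at chr18:3411759-3412058 on the plus strand and NRIP1 at chr21:15065887-15066186 on the minus strand.
MIR7-3HG: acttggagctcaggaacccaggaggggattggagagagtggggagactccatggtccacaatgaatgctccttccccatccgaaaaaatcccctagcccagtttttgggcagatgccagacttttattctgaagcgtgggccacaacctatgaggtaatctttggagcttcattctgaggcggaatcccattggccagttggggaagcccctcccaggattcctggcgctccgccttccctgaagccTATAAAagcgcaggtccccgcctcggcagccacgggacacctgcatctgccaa
SYT11: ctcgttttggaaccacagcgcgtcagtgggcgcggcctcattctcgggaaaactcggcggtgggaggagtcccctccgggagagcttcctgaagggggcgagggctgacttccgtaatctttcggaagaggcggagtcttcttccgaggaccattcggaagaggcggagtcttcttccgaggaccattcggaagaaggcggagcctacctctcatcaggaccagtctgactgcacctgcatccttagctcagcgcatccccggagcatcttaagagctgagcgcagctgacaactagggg
TGIF1: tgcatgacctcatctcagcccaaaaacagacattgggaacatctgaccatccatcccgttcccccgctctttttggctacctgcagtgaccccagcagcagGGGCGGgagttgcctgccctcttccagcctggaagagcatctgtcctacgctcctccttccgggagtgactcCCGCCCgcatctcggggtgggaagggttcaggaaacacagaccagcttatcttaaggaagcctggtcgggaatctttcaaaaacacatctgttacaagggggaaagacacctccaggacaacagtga
NRIP1: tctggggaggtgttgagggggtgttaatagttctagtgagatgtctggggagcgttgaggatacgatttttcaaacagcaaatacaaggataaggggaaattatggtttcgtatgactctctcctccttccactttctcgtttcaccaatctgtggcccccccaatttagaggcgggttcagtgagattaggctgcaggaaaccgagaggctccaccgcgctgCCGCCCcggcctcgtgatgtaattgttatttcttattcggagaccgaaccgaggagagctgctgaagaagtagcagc
The MIR7-3HG window held 1 TATA box, the TGIF1 window 2 GC boxes and the NRIP1 window 1 GC box, and none of these letters was in the SYT11 window. Over all 27305 promoters of the table, 44.6% held a GC box, 1.98% a cyclic AMP response element, 7.76% an AP-1 site and 11.95% a TATA box. Promoters were matched for 327 of the 415 genes higher with FK228, fewer than 80%, so a comparison of motif shares between the called sets is void and is not given.

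The genes highest with FK228 relative to SAHA included many that read under the filter on low levels in vehicle. Of the 25 genes at least 2-fold higher with FK228, 11 had a mean vehicle level under the filter on low levels, and of the 30 at least 2-fold higher with SAHA, 0 had. The filter bears on these counts, since a gene low in vehicle was tested only where other arrays reached it. Of the 24 leading genes described here, 12 on either side, 18 were also called with only the 4 compared arrays in the fit. They were picked by their difference on these same arrays, so this count gives no independent support. MIR7-3HG, the host transcript of a microRNA of the miR-7 family, stood at 6.12 and 6.31 on the FK228 arrays and at 3.55 and 3.82 on the SAHA arrays. It stood at 4.62 and 4.90 with largazole and at 3.23 and 3.06 with vehicle. The FK228 arrays were thus highest, and the SAHA arrays stayed under the filter. The difference was 2.53 ± 0.14 (SE, n = 2, limma adjusted p = 0.000899). The FK228 mean lay 1.72 above the filter, and no fold is given against a level under it. SYT11, which encodes a synaptotagmin of vesicle traffic, stood at 8.10 and 8.19 with FK228, 5.93 and 6.12 with SAHA, 6.99 and 7.24 with largazole and 3.35 and 3.10 with vehicle. Every SYT11 group was separate from the next, in the order vehicle, SAHA, largazole, FK228. Its difference was 2.12 ± 0.13 (limma adjusted p = 0.0014), and its other probe set gave 2.35. The antisense transcript CDKN2A-AS1 followed at 2.00, with 6.99 and 6.67 on the FK228 arrays against 4.92 and 4.74 on the SAHA arrays. Whether the CDKN2A-AS1 probe set also reads the sense partner of this transcript was not tested.

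IRF7, a transcription factor of the interferon response, stood at 9.46 and 9.66 with FK228, 7.83 and 8.07 with SAHA, 8.53 and 8.69 with largazole and 5.93 and 5.90 with vehicle. The IRF7 difference was 1.61 ± 0.12 (limma adjusted p = 0.00234), and no group overlapped another. RASD1, a Ras-like GTPase inducible by dexamethasone, stood at 6.59 and 6.64 with FK228 but at 4.97 and 5.23 with SAHA and 5.06 and 4.79 with vehicle. SAHA and vehicle overlapped at RASD1, where the change with SAHA was 0.18 (limma adjusted p = 0.29) and the difference between the compounds 1.51 ± 0.12 (limma adjusted p = 0.00294). DKK4, a secreted Wnt inhibitor, was higher by 1.46, the transcription factor SOX8 by 1.27 and ARC, a neuronal immediate-early gene, by 1.21. The pseudogene CEP192P1 was higher by 1.64 and its other probe set by 0.78. These calls held with each array left out. MIR7-3HG, IRF7 and SOX8 are each read by 1 probe set, named _s_at, which can match related transcripts. At FOXC2 the SAHA arrays stood at 4.57 and 4.28, with a mean under the filter. The size of the FOXC2 difference therefore rests on such a level. ETV7 (1.22, with 0.28 at its other probe set) lost its call without FK228 replicate 1 or either SAHA array (adjusted p = 0.05 to 0.0657), ACSBG1 (1.21) without either SAHA array (adjusted p = 0.0585 to 0.0721) and FOXC2 (1.24) without any 1 of the FK228, SAHA or vehicle arrays (adjusted p = 0.0759 to 0.151) or without the filter (adjusted p = 0.0697).

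The genes highest with SAHA relative to FK228 were expressed in vehicle and had fallen further with FK228. TGIF1, a homeobox repressor that limits SMAD-driven transcription, stood at 6.35 and 6.49 with FK228, 8.41 and 8.43 with SAHA, 8.79 and 8.69 with largazole and 10.34 and 10.43 with vehicle. The difference was -2.00 ± 0.089 (SE, n = 2, limma adjusted p = 0.000645). A second TGIF1 probe set gave -1.27 and the third -0.03, and when the _x_at and _s_at types were dropped, the third stood for the gene and the call was lost (adjusted p = 0.888). NRIP1, a corepressor of nuclear receptors, stood at 4.17 and 4.53 with FK228, 6.36 and 6.28 with SAHA, 6.01 and 6.11 with largazole and 9.24 and 9.10 with vehicle. The NRIP1 arrays given FK228 lay about the filter on low levels, below all others, and the difference was -1.97 ± 0.13 (limma adjusted p = 0.00189). Their mean (4.35) was under the filter, so the size of the NRIP1 difference rests on such a level. PHLDA1, a pleckstrin homology-like protein induced by growth factors, stood at 8.48 and 8.55 with FK228 and at 10.53 and 10.33 with SAHA, close to the 10.62 and 10.55 with largazole. Its difference was -1.91 ± 0.096 (limma adjusted p = 0.000645), and all 6 of its probe sets were called in this direction, from -0.78 to -2.12.

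Other leading genes of this side were IGF2BP3, an mRNA-binding protein (-1.23, with all 3 probe sets called), the vitamin D hydroxylase CYP24A1 (-1.28), the zinc finger gene ZC3H12C (-1.43) and the non-coding LINC00938 (-1.34). At ZC3H12C (3.86 and 4.10) and LINC00938 (3.67 and 3.91) both FK228 arrays lay under the filter, and the SAHA means lay 0.91 and 0.64 above it, so the size of these differences rests on levels under the filter. PCDH7, a protocadherin, differed by -1.41 ± 0.14 at its strongest probe set, but by 0.03 and -0.11 at the others, and by -0.50 on average. SMAD1, a transducer of BMP signals, differed by -1.36, and its other probe set was called in the same direction. That call ended without SAHA replicate 1 (adjusted p = 0.0714). The Wnt ligand WNT16 (-1.63, with -0.45 at its other probe set) lost its call without FK228 replicate 2 or SAHA replicate 1 (adjusted p = 0.0583 to 0.0701), and so did the EGF receptor ligand EREG (-1.33, with -0.14 at its other probe set; adjusted p = 0.0718 to 0.0931). SOCS6, a suppressor of cytokine signalling, differed by -1.38 and lost its call without FK228 replicate 1 or SAHA replicate 1 (adjusted p = 0.0702 to 0.0906).

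**Figure D2:**
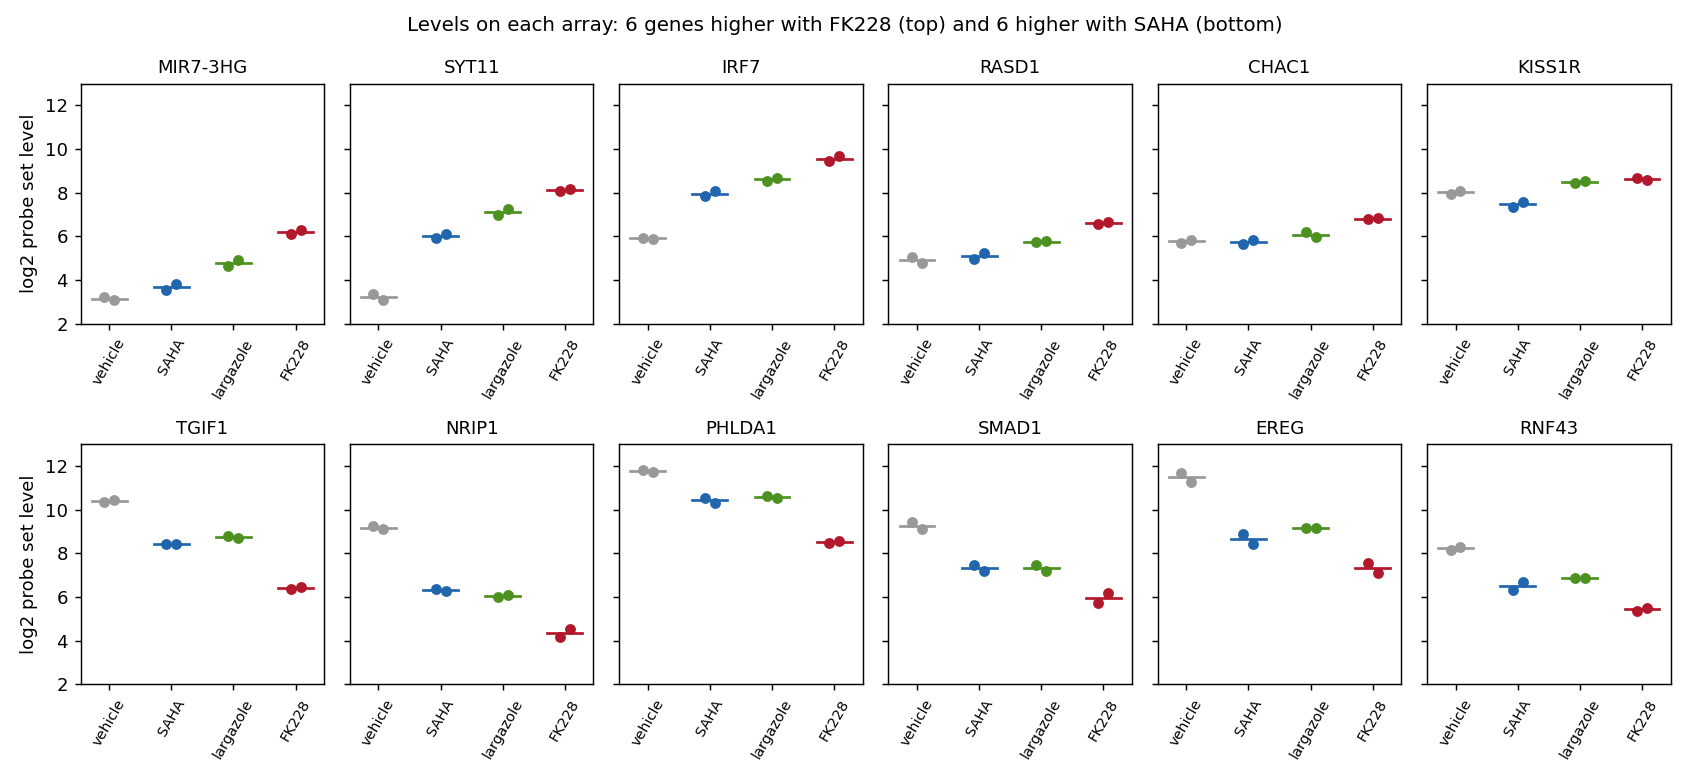
Log2 level of 12 genes on each array (points) with group means (lines) for vehicle, SAHA, largazole and FK228. In the upper row the FK228 arrays lie above the SAHA arrays; RASD1 and CHAC1 stay near vehicle with SAHA, and KISS1R lies below vehicle with SAHA and above it with FK228. In the lower row the SAHA and largazole arrays lie between vehicle and FK228.

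Of the 823 called genes, 120 had mean changes of opposite sign against vehicle. The share over all tested genes was not counted, and a change near 0 can take either sign. The 120 are therefore not a count of genes moved in opposite directions. Only 1 of them had both changes called. That gene was KISS1R, the receptor of kisspeptin, which stood at 8.66 and 8.56 with FK228, 7.36 and 7.57 with SAHA, 8.43 and 8.55 with largazole and 7.96 and 8.08 with vehicle. It rose by 0.59 with FK228 (limma adjusted p = 0.0022), was lower by 0.56 with SAHA (change -0.56, limma adjusted p = 0.0035) and differed by 1.15 ± 0.10 between them (limma adjusted p = 0.00403). Some other genes were called between the compounds while SAHA was not called against vehicle. CHAC1, a glutathione-degrading enzyme induced by ATF4, stood at 6.79 and 6.84 with FK228 and at 5.65 and 5.84 with SAHA, where vehicle stood at 5.70 and 5.84. The CHAC1 difference was 1.07 ± 0.12 (limma adjusted p = 0.00638). GATA6, a transcription factor of endoderm, stood at 6.75 and 6.51 with FK228, 7.75 and 7.47 with SAHA and 7.84 and 7.39 with vehicle. Its difference was -0.98 ± 0.18 (limma adjusted p = 0.0269), and the call ended without any 1 of the compared arrays (adjusted p = 0.0642 to 0.133) and with the mean of its probe sets (-0.45, adjusted p = 0.0742).

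In the list of ERK output and feedback genes, which are induced by ERK signalling or restrain it, 7 of 17 tested members were called higher with SAHA and 0 higher with FK228, where 3.05% and 3.1% of all genes were called. The list's median difference was -0.42, against 0.02 over all tested genes. At an unadjusted p under 0.05, 10 members were higher with SAHA and 0 higher with FK228. Beside PHLDA1, the inhibitors of the Ras pathway SPRED1 (-1.03) and SPRED2 (-0.57), the ERK feedback inhibitor SPRY2 (-0.98 ± 0.081, limma adjusted p = 0.00294), the phosphatase DUSP4 (-0.52), MYC (-0.83) and the cyclin CCND1 (-0.42) were called. SPRY2 stood at 4.62 and 4.60 with FK228, 5.65 and 5.54 with SAHA, 5.83 and 5.84 with largazole and 6.73 and 6.69 with vehicle. MYC stood at 9.45 and 9.66 with FK228, 10.38 and 10.39 with SAHA, 10.55 and 10.62 with largazole and 10.88 and 10.91 with vehicle. At these genes every FK228 array lay below every other array. The ERK phosphatase DUSP6 was not called (-0.43, limma adjusted p = 0.18), nor was FOSL1, an AP-1 subunit (-0.35, limma adjusted p = 0.112). PHLDA1, SPRY2 and MYC stayed called with each array left out, MYC not with only the 4 compared arrays. The calls of SPRED1 ended without FK228 replicate 2 or either SAHA array (adjusted p = 0.0507 to 0.111), of SPRED2 without any 1 of the compared arrays (adjusted p = 0.0599 to 0.0714), and of DUSP4 and CCND1 without any 1 of the 8 arrays (adjusted p = 0.0587 to 0.165) or without the filter.

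The TGF-beta and BMP list showed calls on both sides, 8 of 32 tested members higher with SAHA and 3 higher with FK228, with a median difference of -0.18. The share called was 34.4%, against 6.15% of all tested genes. Among receptors and transducers, TGFBR2, the type II TGF-beta receptor, stood at 6.49 and 6.37 with FK228, 7.48 and 7.66 with SAHA, 7.94 and 7.91 with largazole and 9.00 and 8.95 with vehicle. Its difference was -1.14 ± 0.094 (limma adjusted p = 0.00294). SMAD1 and SMAD3 (-0.88), which carry the signal to the nucleus, were lower with FK228, as were the inhibitory SMAD6 (-0.81) and SMAD7 (-0.70). At SMAD7 all FK228 arrays (3.57 and 3.56) and SAHA arrays (4.31 and 4.22) lay under the filter, so the size of its difference is not a measured fold. The ligands BMP4 (-0.80) and GDF15 (-0.49) and the target ID1 (-0.73) were also lower. The members higher with FK228 were PMEPA1, a TGF-beta target that limits SMAD activation, with 7.97 and 7.99 against 6.89 and 6.78 with SAHA (1.15), the latency protein LTBP3 (0.55) and the pseudoreceptor BAMBI (0.45). The transducers SMAD2 and SMAD4 were not called. TGFBR2 and SMAD3 kept their calls with each array left out, SMAD3 not with only the 4 compared arrays (adjusted p = 0.0527). The calls of SMAD1 and SMAD7 ended without SAHA replicate 1 (adjusted p = 0.0714 and 0.0594), that of PMEPA1 without either SAHA array (adjusted p = 0.0537 to 0.0563) and that of SMAD6 without FK228 replicate 1 or either SAHA array (adjusted p = 0.0587 to 0.0953) or with the mean of its probe sets (-0.34). The calls of BMP4, ID1 and GDF15 ended without any 1 of the compared arrays (adjusted p = 0.0509 to 0.0967), that of LTBP3 without any 1 of those or of the largazole arrays (adjusted p = 0.0546 to 0.129) and that of BAMBI without any 1 of the 8 arrays (adjusted p = 0.0524 to 0.146). GDF15, LTBP3 and BAMBI also lost their calls without the filter, and LTBP3 was at 0.18 without the _x_at and _s_at types (adjusted p = 0.481).

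**Figure D3:**
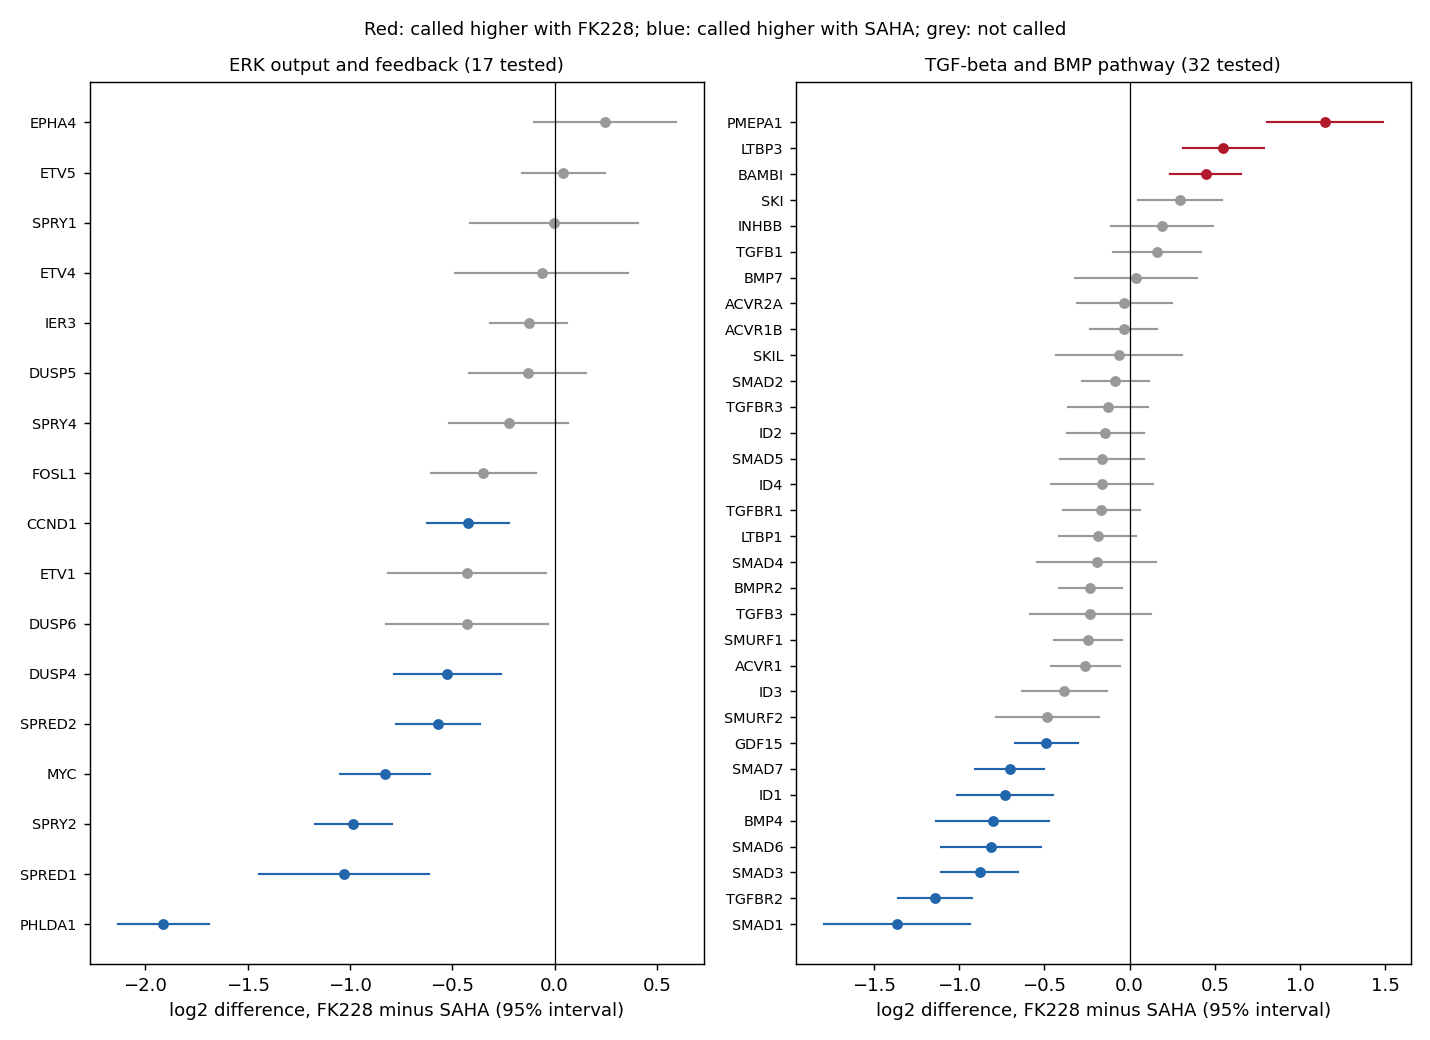
Log2 difference (FK228 minus SAHA, horizontal axis) with its 95% interval for each tested member of the ERK output list (left, 17 genes) and the TGF-beta and BMP list (right, 32 genes). Blue marks the 7 and 8 members called higher with SAHA, red the 3 TGF-beta and BMP members called higher with FK228, grey the members not called. PHLDA1 at -1.91 and PMEPA1 at 1.15 stand at the ends.

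In the Wnt list, 6 of 28 tested members were called higher with SAHA and DKK4 higher with FK228. Together they made 25% of the list, against 6.15% of all tested genes. RNF43, a ubiquitin ligase that removes Wnt receptors, stood at 5.37 and 5.51 with FK228 and at 6.35 and 6.67 with SAHA, against 8.16 and 8.30 with vehicle. Its difference was -1.07 ± 0.12 (limma adjusted p = 0.00794). TCF7L2, the main TCF factor of colon epithelium, differed by -0.90, and 5 of its 7 probe sets were called in this direction. The other members higher with SAHA were MYC and CCND1, which are on the ERK list too, and the feedback genes AXIN2 (-0.63) and DKK1 (-0.38). AXIN2 stood at 7.62 and 7.84 with FK228, 8.37 and 8.35 with SAHA, 9.07 and 9.07 with largazole and 8.62 and 8.19 with vehicle, so that largazole lay above vehicle and FK228 below it. The list's median difference was -0.02. RNF43, DKK4 and MYC stayed called with each array left out, though RNF43 (adjusted p = 0.0517) and MYC (adjusted p = 0.0568) were not with only the 4 compared arrays, while TCF7L2 lost its call without SAHA replicate 1 (adjusted p = 0.0559), AXIN2 without any 1 of the compared or largazole arrays (adjusted p = 0.0835 to 0.168) and DKK1 without any 1 of the 8 arrays (adjusted p = 0.0639 to 0.167). AXIN2, DKK1 and CCND1 also lost their calls without the filter, AXIN2 as the mean of its probe sets (-0.35, adjusted p = 0.0564) and DKK1 without the _x_at and _s_at types (adjusted p = 0.0544).

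In the Notch list 4 of 29 tested members were called higher with FK228 and 2 higher with SAHA. This was a share of 20.7%, where 6.15% of all genes were called. LFNG, a glycosyltransferase that modifies Notch receptors, stood at 7.86 and 7.95 with FK228 and at 7.07 and 7.16 with SAHA, a difference of 0.79 ± 0.082 (limma adjusted p = 0.00558) that held with each array left out but not with only the 4 compared arrays (adjusted p = 0.0517). The target genes HEY2 (0.78) and NRARP (0.55) and the ligand JAG2 (0.44) were higher with FK228, and the coactivator MAML2 (-1.02) and the ligand JAG1 (-0.55) higher with SAHA. Both FK228 arrays of MAML2 lay under the filter (3.99 and 4.30), and its SAHA mean lay 0.67 above it. These 5 calls ended without any 1 of the compared arrays (adjusted p up to 0.154), and those of JAG1 and JAG2 also without the filter. JAG1 is represented by a probe set named _x_at, which can match related transcripts.

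CDK inhibitors and cyclins were called in both directions. Called were 42.9% of the 7 CDK inhibitors and 14.3% of the 14 cyclins, CDKs and CDC25 phosphatases, against 6.15% of all genes. Among 7 tested CDK inhibitors, CDKN1C, which encodes p57, was higher with FK228 (10.10 and 10.07 against 9.28 and 9.33 with SAHA). Its difference was 0.78 ± 0.078 (limma adjusted p = 0.00498), all 4 of its probe sets were called in this direction, and the call held with each array left out. CDKN2D, which encodes p19, was higher by 0.67, and CDKN1B, which encodes p27, lower by 0.83 (difference -0.83). CDKN1A, which encodes p21, stood at 10.78 and 10.79 with FK228 and 10.73 and 10.85 with SAHA, against 9.82 and 9.86 with vehicle. The groups overlapped, and the difference was -0.01 with a 95% interval of -0.22 to 0.21. Of 14 cyclins, CDKs and CDC25 phosphatases, CCNE1 was called higher with FK228 (0.49) and CCND1 higher with SAHA. The call of CDKN1B ended without either FK228 array or SAHA replicate 1 (adjusted p = 0.0508 to 0.0635), that of CDKN2D without any 1 of the 8 arrays (adjusted p = 0.0584 to 0.166). CCNE1 lost its call without any 1 of the compared or largazole arrays (adjusted p = 0.0518 to 0.114), and CCNE1 and CDKN2D also without the filter.

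Of 43 mitosis and spindle checkpoint genes, HMMR (-0.53) and NDC80 (-0.47) were called, with a list median of -0.22. That was 4.65% of the list, where 6.15% of all genes were called. At an unadjusted p under 0.05, 22 of the 43 were higher with SAHA and 0 higher with FK228, where 1538 and 1775 of the 13381 genes were. The median change of this list against vehicle was -0.52 with FK228 and -0.27 with SAHA. The call of HMMR ended without any 1 of the compared or largazole arrays and that of NDC80 without any 1 of the 8 arrays (adjusted p = 0.0532 to 0.195), and both ended without the filter. Of 32 DNA replication and nucleotide synthesis genes, 0 were called by limma, and for 31 of them the interval lay within 1.5-fold. At an unadjusted p under 0.05 there were 9, 6 of them higher with FK228, where 24.8% of all tested genes passed. Of 22 homologous recombination and Fanconi genes, FANCF was called (-0.55), 4.55% of the list. Its call ended without any 1 of the compared or largazole arrays. FANCF was not called without the filter or as the mean of its probe sets (-0.36, adjusted p = 0.0742), nor NDC80 without the _x_at and _s_at types (adjusted p = 0.0512).

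Several groups had calls mainly on the FK228 side. Of 38 ribosome biogenesis genes, 6 were called higher with FK228 and 0 higher with SAHA, and the unadjusted counts were 11 and 0. The called share was 15.8%, against 6.15% of all genes. At an unadjusted p under 0.05, 24.8% of all genes passed. UTP20, a subunit of the small subunit processome, stood at 8.17 and 8.05 with FK228, 7.37 and 7.45 with SAHA and 8.69 and 8.61 with vehicle. It lay below vehicle with both compounds, and higher with FK228 than with SAHA (difference 0.70 ± 0.087, limma adjusted p = 0.0099). The others were the processome protein RRP9 (0.73), RRP12 (0.57), LYAR (0.48), POLR1C, a subunit of RNA polymerases I and III (0.44), and PNO1 (0.42). At RRP12 and PNO1 the probe sets disagreed: without the _x_at and _s_at types the values were -0.02 and -0.03. The call of UTP20 ended without SAHA replicate 1 (adjusted p = 0.0582), and the rest ended without FK228 replicate 2 or either SAHA array (adjusted p up to 0.134). LYAR, POLR1C and PNO1 also lost their calls without the filter. The 28 ribosomal protein genes measured were all within 1.5-fold, with 0 called by limma and 0 at an unadjusted p under 0.05.

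Of 39 lysosome and autophagy genes, 5 were called higher with FK228 and 0 higher with SAHA. That made 12.8% of the list, where 6.15% of all genes were called. NPC1, a cholesterol transporter of the lysosome, stood at 11.03 and 11.01 with FK228, 10.41 and 10.44 with SAHA and 9.03 and 9.03 with vehicle, a difference of 0.60 ± 0.076 (limma adjusted p = 0.0103). The others were the lipid transfer protein ATG2A (0.69), the autophagy kinase ULK1 (0.59), the sialidase NEU1 (0.48) and the channel MCOLN1 (0.46). Without SAHA replicate 1 all 5 calls ended (adjusted p up to 0.14). Those of NEU1 and MCOLN1 ended without any 1 of the compared or largazole arrays and without the filter, that of ULK1 without FK228 replicate 2 or SAHA replicate 2 as well, and that of NPC1 without FK228 replicate 1.

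Of 30 unfolded protein and ATF4 response genes, 13.3% were called, against 6.15% of all genes. There were 4 called higher with FK228 and 0 higher with SAHA. Beside CHAC1 they were the transcription factor DDIT3 (0.58), with 8.97 and 8.96 against 8.34 and 8.42 with SAHA, HERPUD1, a protein of ER-associated degradation (0.52), and the amino acid transporter SLC7A5 (0.42). CHAC1 kept its call with each array left out. The others lost it without any 1 of the compared arrays (adjusted p up to 0.168), and SLC7A5 without any 1 of the 8 arrays and without the filter. TRIB3, another ATF4 target, was lower than vehicle with both compounds and did not pass the test between them (-0.08, limma adjusted p = 0.59).

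Among 31 immediate-early and AP-1 genes, 5 were called higher with FK228 and 1 higher with SAHA. The list's called share was 19.4%, against 6.15% of all genes. FOS, an AP-1 subunit, stood at 9.10 and 9.16 with FK228, 8.34 and 8.50 with SAHA and 5.72 and 5.76 with vehicle (difference 0.71 ± 0.088, limma adjusted p = 0.00993). The transcription factor KLF2 (0.78), the phosphatase DUSP2 (0.75), GADD45B (0.69) and MAFF (0.35) were also higher with FK228. ZFP36L1, which promotes decay of AU-rich mRNAs, stood at 8.10 and 8.10 with FK228, 9.43 and 9.18 with SAHA and 9.79 and 9.61 with vehicle, a difference of -1.21 ± 0.13 (limma adjusted p = 0.0065). KLF2 and ZFP36L1 stayed called with each array left out. The call of DUSP2 ended without SAHA replicate 1 (adjusted p = 0.0521), of FOS without FK228 replicate 2 or SAHA replicate 1 (adjusted p = 0.0505 to 0.0552), of GADD45B without either FK228 array or SAHA replicate 1 (adjusted p = 0.0514 to 0.0654) and of MAFF without any 1 of the 8 arrays (adjusted p = 0.0758 to 0.173). Without the _x_at and _s_at types KLF2 was at 0.18 (adjusted p = 0.6) and GADD45B at -0.23 (adjusted p = 0.257), and MAFF kept its value (adjusted p = 0.0557). MAFF was not called without the filter.

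Of 32 zinc-dependent HDACs and corepressor subunits, 0 were called by limma (4 at an unadjusted p under 0.05), and 29 had an interval within 1.5-fold. Over all tested genes these shares were 6.15% called, 24.8% at an unadjusted p under 0.05 and 79.4% within 1.5-fold. Of 21 acetyltransferases and bromodomain readers, the acetyltransferase CREBBP (-0.63), the bromodomain scaffold BRD1 (-0.51) and TAF1, a subunit of TFIID (-0.50), were called higher with SAHA. Of 29 genes of DNA and histone methylation, the methylcytosine dioxygenases TET3 (-0.88) and TET2 (-0.71) and the H3K4 methyltransferase KMT2D (-0.72) were higher with SAHA and the Polycomb protein CBX2 (0.56) higher with FK228. The called shares of the acetyltransferase and methylation lists were 14.3% and 13.8%, against 6.15% of all genes. At TET3 the mean level with FK228 (4.44) lay under the filter on low levels. KMT2D stood at 5.94 and 5.91 with FK228, 6.74 and 6.54 with SAHA and 7.70 and 7.76 with vehicle. Its call ended without FK228 replicate 2 or SAHA replicate 1 (adjusted p = 0.054 to 0.0554), and the other calls of this paragraph without any 1 of the compared arrays (adjusted p up to 0.157). With the mean of all probe sets, CREBBP (-0.21), TET3 (-0.23), KMT2D (-0.29) and CBX2 (0.22) were not called, and without the filter CREBBP, BRD1 and TAF1 were not.

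Among 21 homeobox genes, TGIF1, HOXB8 (-1.06) and MEIS2 (-0.63) were called higher with SAHA, 0 higher with FK228, and the median was -0.30. These calls made 14.3% of the list, where 6.15% of all genes were called. HOXB8, a HOX factor, stood at 4.38 and 4.98 with FK228, 5.67 and 5.82 with SAHA and 8.80 and 8.75 with vehicle. The calls of HOXB8 and MEIS2 ended without either SAHA array and without 1 FK228 array, replicate 1 and replicate 2 respectively (adjusted p = 0.0585 to 0.11). All 3 are represented by probe sets of the _s_at type, and 0 homeobox genes were called without the _x_at and _s_at types. A TGIF1 probe set of neither type gave -1.27 (limma adjusted p = 0.00234). In that setting, though, the brighter one at -0.03 stood for the gene. Of 33 neuronal and synaptic genes, 4 were called higher with FK228, namely SYT11, the adhesion protein NCAM1 (0.59), the neurexin NRXN2 (0.59) and the complexin CPLX1 (0.57), and SYT13 was called higher with SAHA (-0.51). The share called was 15.2%, against 6.15% of all genes. SYT11 kept its call with each array left out. The others lost it without FK228 replicate 2 or SAHA replicate 1 and without further arrays (adjusted p = 0.0572 to 0.153), and all but NRXN2 lost it without the filter as well, and SYT13 without the _x_at and _s_at types (adjusted p = 0.0519).

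Heat shock genes went both ways. Of 21 tested members, HSPA2, an HSP70 of the testis (1.08), and the co-chaperone DNAJB1 (0.46) were higher with FK228, and the co-chaperone DNAJB4 (-1.02) and the small heat shock protein HSPB8 (-0.77) higher with SAHA. This made 19% of the list, where 6.15% of all genes were called. HSPA2 stood at 8.15 and 8.11 with FK228, 7.11 and 6.999 with SAHA and 6.16 and 6.05 with vehicle (limma adjusted p = 0.00379), and its call held with each array left out. DNAJB4 stood at 7.02 and 6.89 with FK228, 8.18 and 7.78 with SAHA and 8.36 and 8.09 with vehicle, so that SAHA overlapped vehicle. Its call ended without either FK228 array or SAHA replicate 1 (adjusted p = 0.0535 to 0.0698). Those of DNAJB1 and HSPB8 ended without FK228 replicate 2 or either SAHA array and without further arrays (adjusted p = 0.0567 to 0.178), and both ended without the filter. HSPB8 was at -0.25 without the _x_at and _s_at types (adjusted p = 0.476) and at -0.51 as the mean of its probe sets (adjusted p = 0.0834). Of 23 receptor tyrosine kinases and ligands, IGFBP3 (0.88), FGFR3 (0.72) and FGFR2 (0.46) were higher with FK228, and EREG and EGFR (-0.60) higher with SAHA. Called members made 21.7% of this list, against the same 6.15%. EGFR was called at 3 of its 8 probe sets, and the mean of the 8 was -0.20 (adjusted p = 0.113). FGFR2 was at 0.08 without the _x_at and _s_at types (adjusted p = 0.811) and at 0.24 as the mean of its probe sets (adjusted p = 0.124). The calls of IGFBP3, FGFR3, FGFR2 and EGFR all ended without SAHA replicate 1 and without 1 or more other arrays (adjusted p up to 0.144).

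Among the remaining lists, 11.8% of the interferon and antigen presentation genes, 11.4% of the glycolysis and hypoxia genes and 12.5% each of the epithelial junction genes and of the death receptors and caspases were called, where 6.15% of all genes were. In the interferon and antigen presentation list, IRF7 and the immunoproteasome subunit PSMB8 (0.68) were higher with FK228 and IRF2 (-0.96) and IFIT1 (-0.58) higher with SAHA, of 34 tested. PSMB8 passed the filter only through the FK228 arrays (4.51 and 4.54), and SAHA (3.92 and 3.76), largazole and vehicle lay under it. IRF2 lay under the filter on all FK228 (3.01 and 3.80) and SAHA arrays (4.29 and 4.44) and above it with vehicle (5.58 and 5.48). The sizes of these 2 differences are therefore not measured folds. In the glycolysis and hypoxia list, ANKRD37 (0.89), the aldolase ALDOC (0.46) and the hexokinase HK2 (0.37) were higher with FK228 and the oxygen sensor EGLN1 (-0.58) higher with SAHA, of 35 tested. ANKRD37, a hypoxia-inducible gene, stood at 8.66 and 8.65 with FK228 and at 7.77 and 7.76 with SAHA (limma adjusted p = 0.00585). IRF7 and ANKRD37 kept their calls with each array left out, and the other calls of these lists ended without either SAHA array and without at least 1 FK228 array (adjusted p up to 0.156). HK2 turned sign as the mean of its probe sets (-0.04, adjusted p = 0.878), and without the filter PSMB8, IRF2, ALDOC and HK2 were not called. Calls were also made for LLGL2 (0.50), EPPK1 (0.46), CLDN4 (-0.86) and GRHL2 (-0.52) of 32 epithelial junction genes, the NF-kappaB list's TNFRSF19 (0.72) and TNFAIP2 (0.46) of 26, and NFE2L2 (-0.85) and TXNRD1 (-0.39) of 38 NRF2, glutathione and thioredoxin genes. The share called was 7.69% in the NF-kappaB list and 5.26% in the NRF2 list, near the 6.15% of all genes. It was also near that share in the BCL2 family (7.14%), mesenchymal (4.55%), cytoskeletal (4.76%), integrin and laminin (6.25%) and intestinal (7.69%) lists given next. Single calls or pairs were TNFRSF10D (0.52) and TNFRSF1A (-0.64) of 16 death receptors and caspases, BIK (0.49) of 14 BCL2 family genes, CCN2 (0.87) of 22 mesenchymal genes, TUBB4A (0.53) and PALLD (-0.42) of 42 cytoskeletal regulators, ITGA2 (-0.49) of 16 integrins and laminins, and GATA6 of 13 intestinal differentiation genes. Each of these single calls ended when 1 of the compared arrays was left out (adjusted p up to 0.156), SAHA replicate 1 for all of them but TNFRSF19, which lost its call without either FK228 array or SAHA replicate 2. LLGL2 was at 0.14 without the _x_at and _s_at types (adjusted p = 0.707), and LLGL2 (0.32, adjusted p = 0.128), NFE2L2 (-0.36, adjusted p = 0.121) and TNFRSF10D (0.51, adjusted p = 0.0674) were not called as the mean of their probe sets. Without the filter EPPK1, TNFAIP2, TXNRD1, TNFRSF10D, TNFRSF1A, BIK, TUBB4A, PALLD and ITGA2 were not called.

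**Figure D4:**
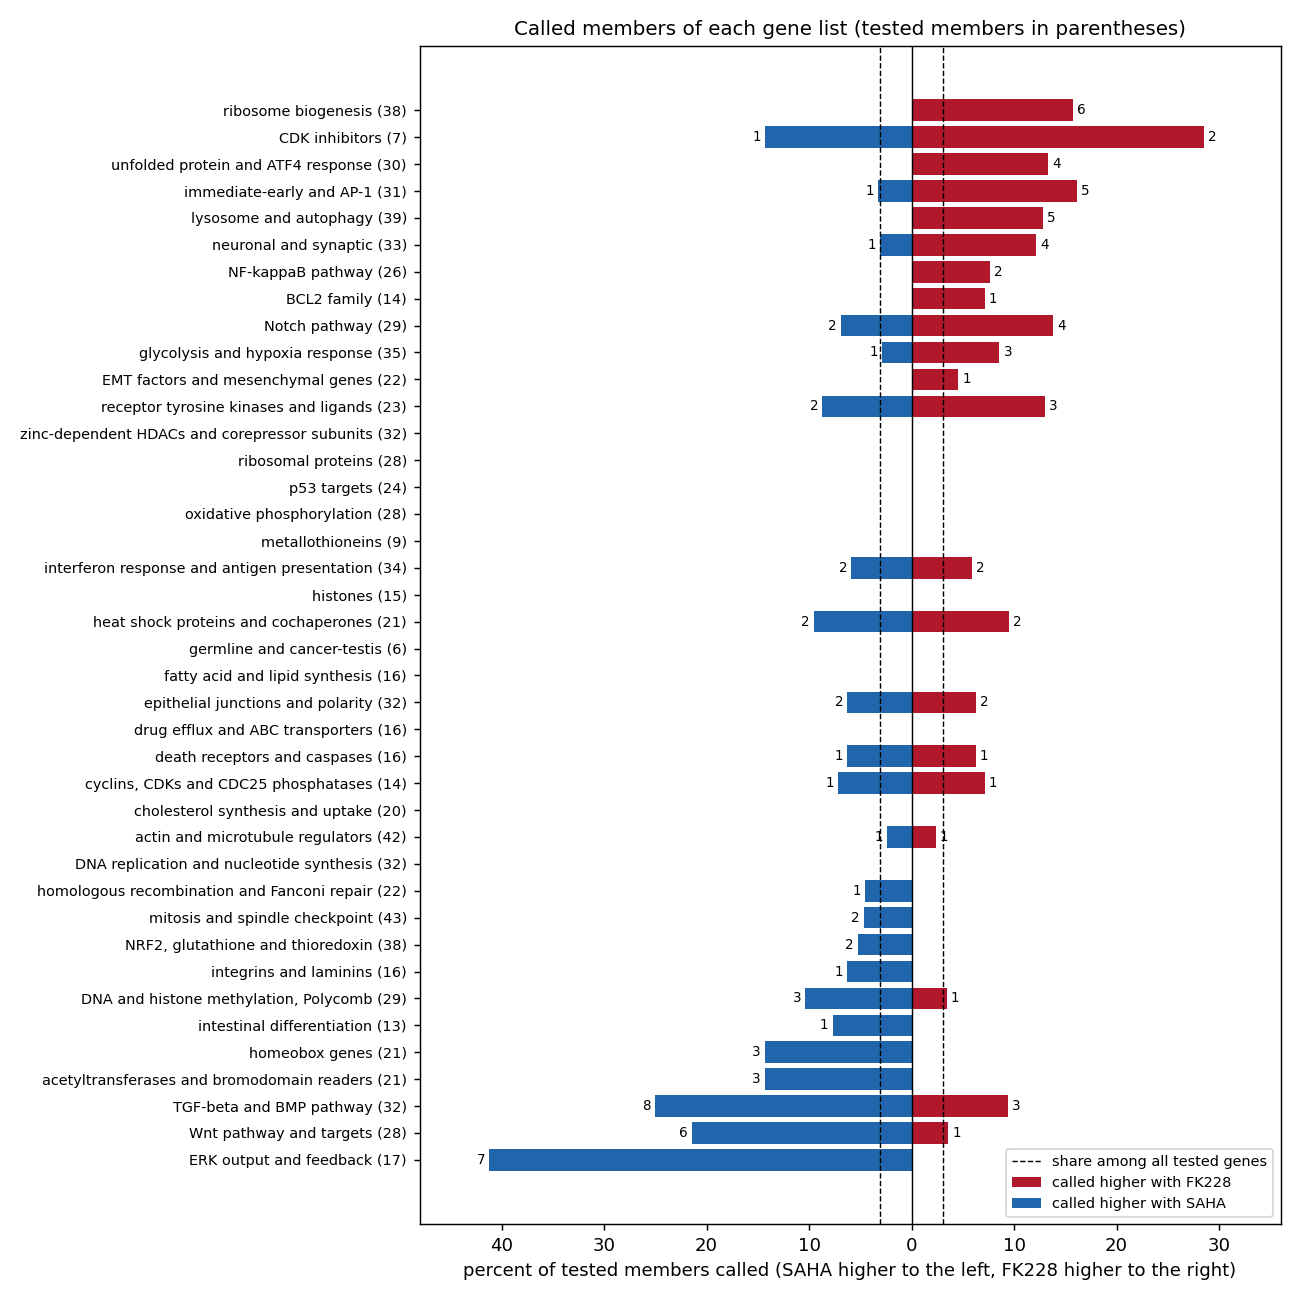
Percent of the tested members of each gene list called higher with SAHA (blue, to the left) or with FK228 (red, to the right), with counts at the bars and the number tested in parentheses. Dashed lines mark the 3.05% and 3.1% called among all genes. The ERK list reaches furthest left with 7 of 17, and metabolic lists such as oxidative phosphorylation have no bar.

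Lists with 0 calls by limma were the 28 oxidative phosphorylation genes and 9 metallothioneins, all within 1.5-fold, 20 cholesterol genes, 16 lipid synthesis genes, 24 p53 targets, 15 histones, 16 drug efflux and ABC transporters and 6 germline genes. Since 6.15% of all genes were called, 0 calls in lists of these sizes lies near that share. At an unadjusted p under 0.05, 24.8% of all tested genes passed. At an unadjusted p under 0.05 the counts higher with FK228 and with SAHA were 1 and 1 for oxidative phosphorylation, 2 and 2 for metallothioneins, 6 and 0 for cholesterol genes, 4 and 1 for lipid synthesis, 1 and 5 for p53 targets, 1 and 1 for histones, 3 and 0 for transporters and 0 and 0 for germline genes. DHRS2, a short-chain dehydrogenase induced by both compounds, stood at 12.44 and 12.51 with FK228, 12.49 and 12.42 with SAHA and 7.70 and 7.47 with vehicle. Its difference was 0.02, with a 95% interval of -0.22 to 0.25, so that a 1.5-fold difference lay outside the interval.

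A panel of 18 genes often measured with HDAC inhibitors was given with intervals. The receptor gene ERBB2 stood at 7.33 and 7.42 with FK228, 7.35 and 7.38 with SAHA and 8.56 and 8.61 with vehicle, a difference of 0.01 with an interval of -0.18 to 0.20. The differences of the receptors ERBB3 (-0.08), MET (-0.26) and IGF1R (-0.26), the deacetylases HDAC1 (0.04), HDAC2 (-0.20), HDAC3 (0.03) and HDAC5 (0.12), the survival gene MCL1 (0.19) and thymidylate synthase TYMS (0.21) did not pass the test, and all their intervals lay within 1.5-fold. TYMS passed it with an intensity trend and robust prior (adjusted p = 0.0276) and as the mean of its probe sets (0.27, adjusted p = 0.0463). BCL2L1, another survival gene, stood at 6.67 and 7.46 with FK228 and at 7.45 and 7.55 with SAHA. Its interval, -0.99 to 0.11, was wide, so a lower level with FK228 was neither shown nor bounded. The drug efflux pump ABCB1 differed by -0.20 with an interval that also passed 1.5-fold. MYC, CDKN1B, EGFR and CCND1 were the called genes of the panel, all higher with SAHA.

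**Figure D5:**
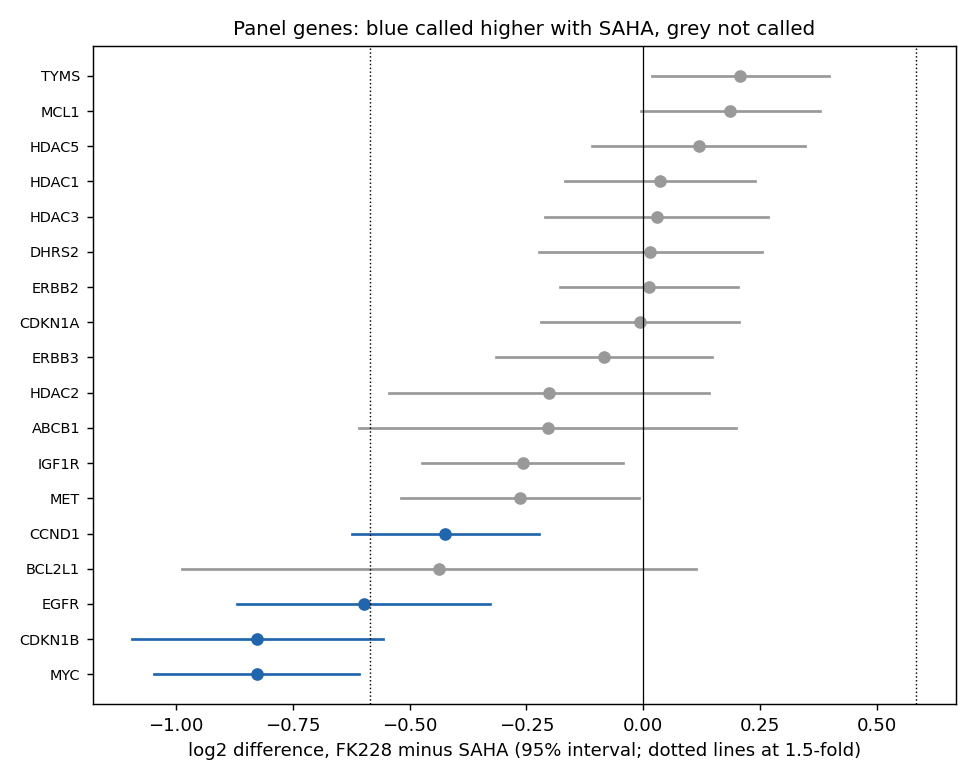
Log2 difference (FK228 minus SAHA, horizontal axis) with its 95% interval for the 18 panel genes, with dotted lines at 1.5-fold. Blue marks MYC, CDKN1B, EGFR and CCND1, called higher with SAHA, and grey the genes not called. The CDKN1A, ERBB2 and DHRS2 intervals straddle zero inside the dotted lines, and among the grey genes BCL2L1 reaches furthest beyond them.

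Largazole was given at the dose of FK228 and allows a comparison of the depsipeptides at a matched dose, beside the FK228 and SAHA comparison whose doses differ. Between FK228 and largazole, 1214 genes (9.07%) were called, 561 (4.19%) higher with FK228 and 653 (4.88%) higher with largazole. This count was 332 and 359 without FK228 replicate 1 and 2, and 99 and 173 without largazole replicate 1 and 2. It was 562 without the filter, 1864 with the replicate number as a block, 1924 with a stricter filter and 2024 with an intensity trend and robust prior. Between largazole and SAHA 3 genes (0.0224%) were called, all higher with largazole. This count was 0 with any 1 array left out, without the filter or with the replicate block, and 21 when all probe sets of a gene were averaged, 36 with a stricter filter and 57 with an intensity trend and robust prior. In the limma fit 1372 had an unadjusted p under 0.05, 903 of them higher with largazole. The 3 genes were KISS1R, TNFAIP2, a TNF-inducible gene, and PABPN1, a nuclear poly(A)-binding protein. PABPN1 stood at 6.01 and 6.01 with largazole and 6.06 and 5.97 with vehicle, but at 5.07 and 5.18 with SAHA and 5.13 and 5.06 with FK228, and the difference between the latter was -0.03. These comparisons share arrays with the comparison of FK228 and SAHA. At PHLDA1, SMAD1 and TGIF1 the largazole arrays lay near the SAHA arrays, and at DKK4 (7.42 and 7.38 with largazole, 7.45 and 7.80 with FK228, 6.24 and 6.08 with SAHA) nearer the FK228 arrays.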

How the data were processed

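RNA from HCT116 cells was measured on 8 Affymetrix arrays, 2 per treatment. The deposited table holds probe set levels on a log2 scale, per the file headers and the range of values. The submitters' processing notes list affy, RMA and limma; their versions and roles are not given in the sources used here. Where RMA was used, its quantile step gives all arrays one distribution, so a shift shared by most transcripts would not be seen. The labels speak only of duplicates, so p-values measure the spread between these samples, which may be technical. Precision is limited by how few arrays there are; the 95% interval of a difference reached a median of 0.26 to either side.

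Of 54613 probe sets, 41091 had exactly 1 gene symbol in the platform annotation, 1801 several and 11721 none; 41037 matched RefSeq by gene ID. Tested were the 28985 probe sets with at least 2 arrays at or above 4.49, the median of the table. Each of the 13381 genes is read by its brightest probe set with 1 symbol. limma 3.58.1 (R 4.3.3) fitted the 8 arrays with a coefficient for each group, moderated variances (4 residual and 3.69 prior degrees of freedom) and Benjamini-Hochberg adjustment. Exact permutation was not used, since with 2 arrays a side its smallest two-sided p is 0.333.

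Named genes are the 12 highest on either side among called genes without overlap, up to 6 on opposite sides of vehicle, up to 2 highest and 2 lowest called members of each list, and a panel of 18. Further members of lists, PABPN1, TRIB3, DUSP6 and FOSL1 were chosen after their values were seen. The genes, lists and tests were chosen with earlier results of these data known. On data simulated for FK228 against SAHA, with 28985 probe sets of which 50 changed at each size, none of the 1.2-fold changes was found, 25 of the 1.5-fold, 46 of the 2-fold and 50 of the 4-fold. Of the 126 calls 5 were false. The simulation changed far fewer probe sets than the 1613 called in the data and drew independent errors, with no shared replicate effect. Its figures therefore hold for that setting and do not carry over directly to the data. Promoters came from RefSeq (GRCh38.p14). Alternatives were other filters, another prior, the replicate block, 2 further normalizations, other choices of probe sets, only the 4 compared arrays and each array left out. Python 3.11.15, pandas 2.3.3 and matplotlib 3.10.9 prepared tables and figures.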

Additional observations from a re-analysis of the deposited data

How the results depend on the processing

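The number of called genes moved with the settings far more than the split between directions. The main values were 823 genes, 415 higher with FK228 and 408 higher with SAHA. Without the filter on low levels they were 319, 160 and 159, and 309 of the 319 were among the 823. With the stricter filter at 6.87 they were 1479, 773 and 706, and with an intensity trend and robust prior 1594, 791 and 803. With only the 4 compared arrays they were 65, 33 and 32. With each array left out in turn the total ran from 94 to 540, the genes higher with FK228 from 42 to 272 and those higher with SAHA from 52 to 268; a group left with 1 array was given the spread of the other groups. With replicate number as a block they were 1424, 678 and 746, and 815 of the 823 genes stayed called. The deviations of same-numbered FK228 and SAHA arrays correlated at 0.24, and over all 6 pairs of groups at 0.13 to 0.27. The labels do not say that a number marks a shared batch, and 2 numbers are too few to settle a pairing from the data, so the arrays were not taken as paired; whether they share a replicate effect was not settled. Of 143 genes followed across the settings, 91 lost their call with only the 4 compared arrays, 45 without the filter, 16 with the mean of all probe sets, 10 without the _x_at and _s_at types and 3 with the replicate block. Another 4 turned sign and were not called: HK2 to -0.036 with the mean of all probe sets, and GADD45B to -0.23, PNO1 to -0.034 and RRP12 to -0.016 without the _x_at and _s_at types. TYMS became called under the intensity trend and robust prior, and when its probe sets were averaged. The cause of these shifts was not tested. Genes called and at least 2-fold apart (55) ran from 37 to 56 over all settings.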
